A study of Mus musculus with 12 samples.

Results

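Progenitor cells of the bone marrow from donors labelled as lacking both Tet2 and Id1 (dKO) were compared with those from donors labelled as lacking Tet2 alone (Tet2KO), over all genes. The comparison was made by the genotype label and holds 6 of the 12 libraries of the series, 3 for each label. The cells were donor cells that carried the receptor Kit and no marker of a mature lineage, sorted from the marrow of mice that had received donor and competitor cells together. Both groups thus share the label of Tet2 loss and the transplantation, and they differ in the label of Id1 loss. The other 6 libraries are WT, with neither loss, and Id1KO, with loss of Id1 alone. They give the same contrast of the Id1 label in cells with Tet2, and share no library with the comparison. Per genotype label the titles give 1 sample number with 3 libraries. Whether these come from separate mice is not stated, so the p-values measure the spread between these libraries, which may be technical. The alleles, any promoter or Cre that drives the deletions, the age of the mice and the number pooled are not given in the sources used here.

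Tet2 oxidises methylated cytosine in DNA, and its loss in a blood stem cell lets the descendants of that cell expand, a state called clonal hematopoiesis that precedes some leukemias. Id1 is a small helix-loop-helix protein without a DNA-binding part. It pairs with E proteins such as Tcf3 and Tcf12 and keeps them and their partners, among them the erythroid and stem cell factor Tal1, from binding the E-box in DNA. Progenitors with Kit and without lineage markers include multipotent cells and cells already committed to red cells, platelets, granulocytes, monocytes, mast cells or lymphocytes. In such a bulk sample a lower share of cells of a type and less RNA per cell cannot be told apart. The series title names reduced clonal hematopoiesis and delayed leukemia after ablation of Id1 in mice with Tet2 loss, and the comparison asks which transcripts differ with the Id1 label when Tet2 is labelled as lost.

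The promoters of 4 erythroid genes that were higher in the dKO libraries, and of 1 heat shock gene that was lower, are shown. These genes are named in the results on red cell genes and chaperones below. Whether the promoters have a part in those results was not tested. The windows run from 250 bases before to 50 bases after the start of the gene, 5′ to 3′ on the strand of the gene, and come from RefSeq on GRCm38.p6. For the erythroid genes capitals mark GATAAG, the core recognised by GATA factors, and CCNCNCCC, a form of the CACCC box recognised by Klf1 and related proteins, on either strand. For Hspa1a they mark GAANNTTC or TTCNNGAA, the paired units of a heat shock element.
Hbb-bs: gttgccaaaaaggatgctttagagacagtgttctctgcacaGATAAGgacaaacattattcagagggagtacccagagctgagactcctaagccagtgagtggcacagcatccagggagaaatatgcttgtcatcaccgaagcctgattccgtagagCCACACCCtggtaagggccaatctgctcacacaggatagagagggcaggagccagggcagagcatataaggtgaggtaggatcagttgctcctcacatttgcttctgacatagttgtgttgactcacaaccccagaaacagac
Hba-a1: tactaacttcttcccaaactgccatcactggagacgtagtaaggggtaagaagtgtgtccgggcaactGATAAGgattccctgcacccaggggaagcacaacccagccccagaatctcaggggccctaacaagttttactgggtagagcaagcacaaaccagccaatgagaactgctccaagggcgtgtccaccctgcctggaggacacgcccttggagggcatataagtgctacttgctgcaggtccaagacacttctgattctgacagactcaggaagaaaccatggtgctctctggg
Klf1: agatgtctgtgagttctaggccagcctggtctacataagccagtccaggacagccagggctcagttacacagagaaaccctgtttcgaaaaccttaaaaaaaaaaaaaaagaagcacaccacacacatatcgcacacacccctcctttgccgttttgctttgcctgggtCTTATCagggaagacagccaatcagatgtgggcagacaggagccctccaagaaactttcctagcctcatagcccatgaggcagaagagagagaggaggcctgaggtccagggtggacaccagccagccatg
Rhag: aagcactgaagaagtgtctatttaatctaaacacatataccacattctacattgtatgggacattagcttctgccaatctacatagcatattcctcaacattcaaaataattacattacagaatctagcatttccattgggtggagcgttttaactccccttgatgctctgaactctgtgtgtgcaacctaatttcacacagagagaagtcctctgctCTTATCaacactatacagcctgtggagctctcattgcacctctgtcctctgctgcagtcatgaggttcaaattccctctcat
Hspa1a: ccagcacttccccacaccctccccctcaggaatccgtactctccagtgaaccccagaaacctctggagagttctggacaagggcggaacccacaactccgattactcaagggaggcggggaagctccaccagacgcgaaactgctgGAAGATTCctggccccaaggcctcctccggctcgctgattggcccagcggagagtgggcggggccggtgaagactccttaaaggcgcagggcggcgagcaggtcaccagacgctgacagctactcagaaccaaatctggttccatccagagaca
The window of Hbb-bs lies at chr7:103827879-103828178 on the minus strand, that of Hba-a1 at chr11:32283422-32283721 on the plus strand, that of Klf1 at chr8:84901732-84902031 on the plus strand, that of Rhag at chr17:40810899-40811198 on the plus strand, and that of Hspa1a at chr17:34972107-34972406 on the minus strand. Each of the 4 erythroid windows holds 1 GATAAG, and that of Hbb-bs also holds 1 CCNCNCCC.

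Across the promoter table GATAAG occurs in 7.44% of 32851 windows. It occurs in 6 of 13 windows (46.2%) of 11 genes for globins and heme synthesis and in 10 of 35 windows (28.6%) of 28 erythroid regulators and membrane genes. Among genes tested, the share was 5.39% of 12551 windows, against 7.16% for genes called higher and 5.41% for genes called lower. CCNCNCCC is common, at 49.5% of all windows, 66.4% of those of genes tested, 76.9% of those for globins and heme and 74.3% of those of the erythroid list. The E-box CANNTG stands in 72.3% of all windows, in 63.9% of those of genes tested and in 60.0% of the erythroid list, so it is common in each. A heat shock element in either form occurs in 15.1% of all windows, in 12% of those of genes tested and in 14 of 28 windows (50%) of the heat shock chaperone list. These matches describe letters in the window and say nothing about binding.

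The names of the groups are labels that the deposited counts do not bear out at the targeted genes. Levels are given in CPM, counts scaled by TMM to a common library total, and every fold change is the log2 of dKO over Tet2KO from the fit unless another comparison is named. Tet2, at chr3:133463679-133545139, stood at 127, 132 and 130 CPM in the 3 Tet2KO libraries and at 121, 119 and 115 CPM in the dKO libraries, and its mean was 99.3 CPM in WT. Libraries labelled as null thus had no less Tet2 RNA than WT, and the dKO libraries lay a little below the Tet2KO libraries (log2 fold change -0.14, SE 0.0304, adjusted p = 0.002). Id1, at chr2:152736251-152737410, stood at 4.35, 3.63 and 3.61 CPM in Tet2KO and at 4.18, 3.35 and 4.25 CPM in dKO. These ranges overlap (log2 fold change 0.03, SE 0.148, adjusted p = 0.921), and the WT mean was lower, at 1.47 CPM. The Id1KO libraries, at 3.844, 3.695 and 4.347 CPM, also lay above WT (log2 fold change of Id1KO over WT 1.43, adjusted p = 8.11e-06). Counts summed over a gene do not show whether a deleted exon or a stop is present in the RNA, and which exons the alleles remove is not given in the sources used here. The libraries are therefore called by their labels, and so are directions.

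Total estimated counts lay between 15706407 and 19959183 per library in the series. Counts of Cd3e, Ms4a1, Ly6g, Col1a1 and Cdh5, which mark T cells, B cells, neutrophils, stroma and endothelium, lay between 0 and 3 in every library, while the progenitor genes Kit, Cd34 and Myb had at least 4534 counts in each. Other markers of these kinds were present at low levels, such as Cd79a of B cells, at 10 to 28 counts. Replicate 2 of dKO stood apart from the others of its label. Its median squared difference from them was 2.10 and 1.95 times what sampling gives. The same ratio was 1.24 between replicates 1 and 3 and 1.18 to 1.25 among the Tet2KO libraries. Replicate 2 of dKO had 1.66% of its counts on mitochondrial RNA and 5.74% on small structural RNA. Both others had 1.4% on mitochondrial RNA, and they had 6.66% and 6.61% on small structural RNA. Genes annotated as unspliced or intronic transcripts (TEC and sense intronic) took 0.237% to 0.245% of counts in Tet2KO and 0.258% to 0.277% in dKO, and the part of this shift in the results was not tested. Counts over gene lists that changed by more than 1.5 times without 1 library are given with their values below.

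Of 14346 genes tested, 3793 (26.4%) passed an adjusted p of 0.05 in edgeR's quasi-likelihood test. The call was higher in dKO for 1876 genes (13.1%) and lower for 1917 genes (13.4%), and the median log2 fold change over all genes tested was -0.0001. Most differences were small. The median size among called genes was 0.218 on the log2 scale, and 131 genes exceeded 2-fold, of which 81 were higher and 50 lower. Among protein-coding genes 29.5% were called. Of 30 tested snRNA genes 11 were higher and 1 lower, with a median of 0.491, whereas of 62 snoRNA genes 3 were higher and 17 lower, with a median of -0.246. The 15 mitochondrial transcripts included 8 lower genes and none higher. The share called on the nuclear chromosomes ran from 22.3% on chromosome 18 to 30.9% on chromosome 15.

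**Figure D1:**
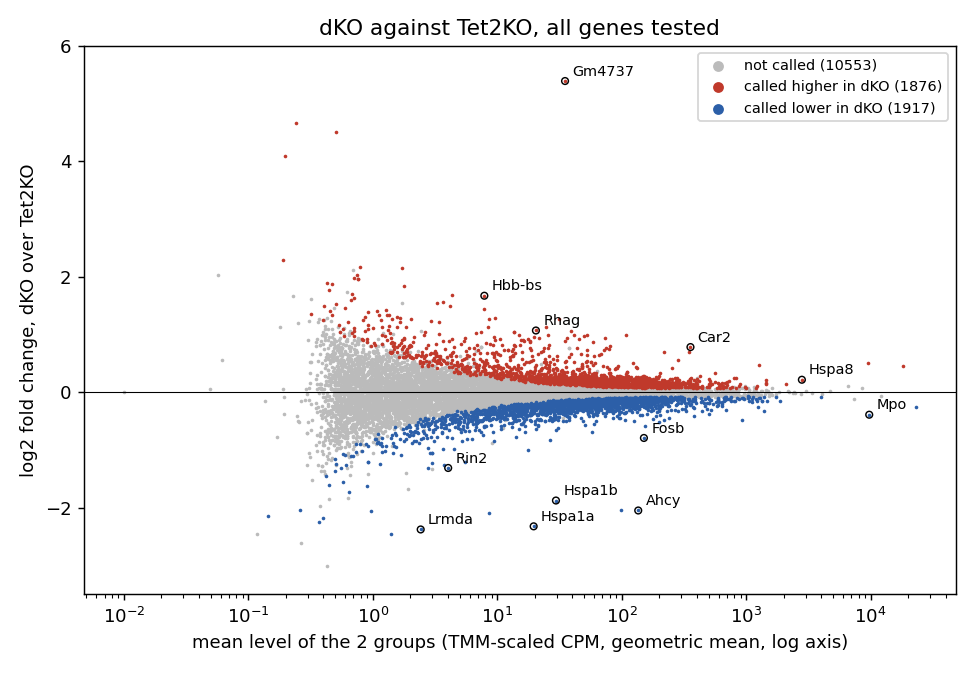
Each point is 1 of 14346 genes tested, with its mean level in TMM-scaled CPM on a logarithmic horizontal axis and its log2 fold change of dKO over Tet2KO on the vertical axis; red and blue mark 1876 genes called higher and 1917 called lower. Points lie close to 0 at high levels, with Gm4737, Hspa1a and Ahcy far from the band, and 12 genes lie outside the vertical range.

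Red cell genes were higher in the dKO libraries. Of 38 listed erythroid regulators and membrane genes, 37 were tested, 34 were higher and 1 was lower, with a median log2 fold change of 0.71. Of 15 listed genes of globins and heme synthesis, 14 were tested, 12 were higher and none was lower, with a median of 0.44. Their summed levels showed no overlap: the erythroid list reached 2538.4, 2525.0 and 2539.2 CPM in Tet2KO and 3659.0, 3628.0 and 3629.1 CPM in dKO. The dKO sums are close to those in WT, which ran from 3651.5 to 3733.3 CPM, and Id1KO ran from 3881.6 to 3898.4 CPM. With the globin and heme list the sums were 452.5, 451.2 and 452.1 CPM in Tet2KO, 606.8, 592.1 and 600.3 CPM in dKO, and 585.6 to 596.1 CPM in WT. In both lists the Tet2KO libraries are the low group of the 4 and the dKO libraries lie near WT.

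The regulators come first. Gata1, the factor that directs erythroid and megakaryocytic genes, measured 29.7, 31.1 and 32.3 CPM in Tet2KO and 50.02, 48.85 and 49.44 CPM in dKO. Every dKO library was above every Tet2KO library, and the log2 fold change was 0.67 (SE 0.0438, adjusted p = 8.25e-10). Klf1, which activates the adult beta globin gene and many red cell membrane genes, measured 41.5, 40.3 and 40.3 CPM in Tet2KO and 69.9, 66.3 and 66.0 CPM in dKO, again without overlap (log2 fold change 0.73, SE 0.0422, adjusted p = 1.12e-10). Gfi1b, a repressor needed for erythroid maturation, was higher by 0.77 on the log2 scale. Tal1, which pairs with E proteins and is held back when Id proteins bind these, measured 87.2, 87.3 and 84.3 CPM in Tet2KO and 104, 101 and 104 CPM in dKO (log2 fold change 0.26, adjusted p = 4.76e-06). Nfe2, which acts in platelet and globin gene expression, was the lower member, with 126, 116 and 120 CPM in Tet2KO and 110, 108 and 105 CPM in dKO (log2 fold change -0.16, adjusted p = 0.000898). Gata1, Klf1, Gfi1b, Fech, Alas2, Tfrc and Ank1 were chosen for naming after their values were seen.

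The receptor Epor, through which erythropoietin keeps erythroid progenitors alive, measured 13.6, 14 and 14.3 CPM in Tet2KO and 25.7, 22.5 and 23.6 CPM in dKO (log2 fold change 0.77, adjusted p = 3.57e-08). Tfrc, the transferrin receptor that brings in iron, was higher by 0.56. Car1 and Car2 are the carbonic anhydrases of red cells and the most abundant members of the list. Car2 stood at 272, 271 and 273 CPM in Tet2KO and at 466, 469 and 468 CPM in dKO, with a log2 fold change of 0.78 (SE 0.0242, adjusted p = 3.28e-15), and Car1 was higher by 0.70. In both genes the gap between groups was many times the spread within them.

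Genes of the red cell membrane and its skeleton belong to the same list. Rhag, the carrier associated with the Rh proteins, rose from 13.7, 14.4 and 14.2 CPM in Tet2KO to 30.1, 31.1 and 27.7 CPM in dKO (log2 fold change 1.07, SE 0.0608, adjusted p = 8.47e-11). Epb42, which ties the membrane skeleton to the anion exchanger, measured 2.21, 2.68 and 2.53 CPM against 8.11, 6.47 and 6.38 CPM (log2 fold change 1.49, adjusted p = 4.63e-07). No library of either group reached into the range of the other for either gene. Ank1, the erythroid ankyrin, was higher by 0.94.

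The enzymes of heme synthesis and the globins form the second list. Cpox, which oxidises coproporphyrinogen, measured 57.2, 56.5 and 53.7 CPM in Tet2KO and 89.3, 94.4 and 94.5 CPM in dKO (log2 fold change 0.73, adjusted p = 8.58e-12). Fech, which inserts iron, was higher by 0.29. Alas2, the erythroid first step, did not pass the test, at 0.245, 0.179 and 0.700 CPM in Tet2KO and 0.571, 0.539 and 0.591 CPM in dKO (log2 fold change 0.55, SE 0.441, adjusted p = 0.397); such low levels leave the difference undetermined, and Apex2 overlaps it on the other strand. Hbb-bs, an adult beta globin, measured 4.41, 4.71 and 4.09 CPM in Tet2KO and 15.6, 13.4 and 13.1 CPM in dKO (log2 fold change 1.67, SE 0.11, adjusted p = 8.25e-10). Hba-a1, an adult alpha globin, measured 4.90, 6.61 and 6.95 CPM against 15.5, 14.2 and 15.3 CPM (log2 fold change 1.28, adjusted p = 1.06e-07). The paired copies Hbb-bt and Hba-a2 were higher by 1.57 and 1.44. Because copies can trade reads, their sums were taken: the adult beta globins summed to 6.538 CPM in Tet2KO and 20.37 CPM in dKO, and the adult alpha globins to 10.95 and 27.96 CPM. WT sums were 11.78 and 18.53 CPM, so the globins in dKO lay above WT and those in Tet2KO below it. Hbb-bs counts were 72.26 to 78.65 in Tet2KO and 221.78 to 246.24 in dKO, low for a gene that dominates the RNA of late red cells.

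**Figure D2:**
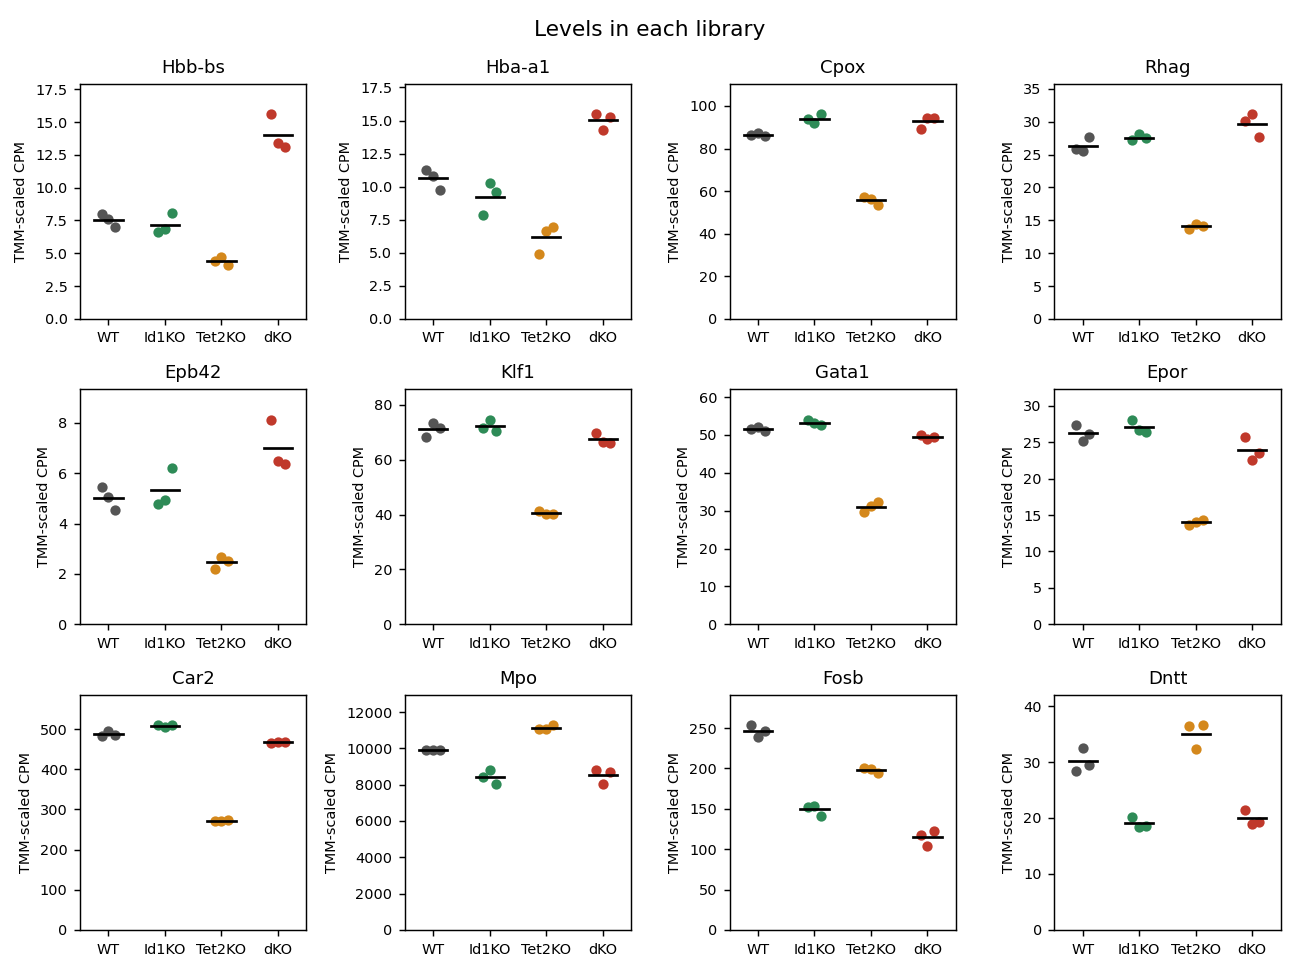
TMM-scaled CPM of 12 genes in each library, from an axis that starts at 0, with 3 points per genotype label and a bar at their mean. For the 9 erythroid genes the Tet2KO libraries are the lowest of the 4 groups, while Mpo, Fosb and Dntt are lower in dKO than in Tet2KO.

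Most lists of other lineages held more lower than higher genes in dKO against Tet2KO. In Tet2KO against WT the medians were 0.158 for neutrophil, 0.227 for monocyte and dendritic, 0.332 for lymphoid and 0.115 for stem cell genes. They were -0.071 for mast cell and -0.016 for megakaryocyte genes. In dKO against WT, in the same order, the medians were -0.044, 0.097, -0.134, -0.008, -0.213 and -0.004. Of 28 tested neutrophil granule genes, 17 were lower and 3 higher in dKO than in Tet2KO, with a median of -0.18 against -0.0001 over all genes. Mpo, the myeloperoxidase of primary granules, measured 11090, 11060 and 11270 CPM in Tet2KO and 8824, 8021 and 8671 CPM in dKO (log2 fold change -0.39, SE 0.0337, adjusted p = 5.13e-08). Elane, neutrophil elastase, measured 1583, 1539 and 1530 CPM against 1288, 1157 and 1269 CPM (log2 fold change -0.32, adjusted p = 1.05e-06). In both genes every dKO library lay below every Tet2KO library. Fcnb, a ficolin, was lower by -0.57, and Itgam, an integrin of mature myeloid cells and one of the lineage markers of the sort, by -0.44. The direction was not shared by Ltf, the lactoferrin of later granules, at 4.11, 3.52 and 3.82 CPM in Tet2KO and 4.94, 5.45 and 5.38 CPM in dKO (log2 fold change 0.46, adjusted p = 0.00932), a call that DESeq2 did not make (adjusted p = 0.0627).

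Most monocyte and dendritic cell genes that passed were lower: of 28 tested, 13 were lower and 3 higher, with a median of -0.11. Called or not, 21 of the 28 had a log2 fold change below 0. Ly6c2, a surface protein of monocytes, measured 755, 786 and 775 CPM in Tet2KO and 630, 633 and 607 CPM in dKO (log2 fold change -0.31, adjusted p = 8.95e-08). Ccr2, the receptor that draws monocytes out of marrow, was higher, at 173, 174 and 173 CPM against 198, 210 and 199 CPM (log2 fold change 0.22, adjusted p = 8.97e-05). F13a1, a coagulation factor subunit of monocytes and platelets, was higher by 0.16, and Zbtb46, a factor of classical dendritic cells, by 0.72. Mgl2, a lectin of macrophages and dendritic cells, was lower by -0.99, and summed with its near copy Clec10a by -0.485 (10.32 to 7.374 CPM).

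Mast cell, basophil and eosinophil genes were lower in 8 and higher in 1 of 17 tested, with a median of -0.20. Cpa3, a mast cell protease, measured 56.2, 62.5 and 62.2 CPM in Tet2KO and 44.7, 50.8 and 46.5 CPM in dKO (log2 fold change -0.35, adjusted p = 3.54e-05). Prg2, the major basic protein of eosinophils, was lower by -0.22, and Fcer1a, the high-affinity IgE receptor chain, by -0.36, a call lost without dKO replicate 1 (adjusted p = 0.05175). Il1rl1, the receptor for interleukin-33, was the higher member, with 21.6, 20.3 and 20.3 CPM in Tet2KO and 29.7, 30.1 and 29.1 CPM in dKO. Megakaryocyte and platelet genes were higher in 4 and lower in 5 of 22 tested, with a median of 0.02. Leaving out each of the 6 compared libraries in turn gave 1 to 3 lower calls in place of 5, and 2 to 4 higher calls. Pf4, a platelet chemokine, measured 26.5, 24.8 and 27.1 CPM against 35.0, 32.7 and 29.0 CPM (log2 fold change 0.30, adjusted p = 0.00138).

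Lymphoid genes had the lowest median, at -0.43 over 22 tested of 30 listed, with 9 lower and none higher; DESeq2 called 5 lower. Dntt, which adds bases at antigen receptor joints in lymphoid progenitors, measured 36.5, 32.3 and 36.6 CPM in Tet2KO and 21.5, 18.9 and 19.3 CPM in dKO (log2 fold change -0.82, SE 0.0689, adjusted p = 3.57e-08). Cd79b, a part of the B cell receptor, was lower by -0.37 and Nkg7, a granule protein of cytotoxic cells, by -0.35. Antigen presentation genes followed, with 17 lower and none higher of 31 tested and a median of -0.11. H2-Ob, a class II modulator, measured 15.8, 15.2 and 16.2 CPM against 10.02, 10.48 and 12.23 CPM (log2 fold change -0.53, adjusted p = 6.85e-05), and H2-DMa, which loads peptides, was lower by -0.28.

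Stem and multipotent cell genes were lower in 14 and higher in 2 of 32 tested, with a median of -0.16. Cd34 measured 370, 361 and 366 CPM in Tet2KO and 287, 297 and 295 CPM in dKO (log2 fold change -0.32, SE 0.0249, adjusted p = 1.18e-08). Kit, the receptor used in the sort, was lower by -0.19. Hlf, a factor enriched in stem cells, measured 13.6, 13.2 and 12.6 CPM against 8.81, 8.62 and 8.68 CPM (log2 fold change -0.59, adjusted p = 4.85e-05), and Rbpms, an RNA-binding protein, was lower by -0.60. Mllt3, which sustains stem cells and is also active in erythroid and megakaryocytic cells, was higher, at 21.6, 22.4 and 21.97 CPM against 29.2, 31.0 and 28.4 CPM (log2 fold change 0.42, adjusted p = 0.000149). In each of these genes the 2 groups did not overlap.

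Of 11 tested markers related to the sort, 6 were lower and 1 was higher. Among 8 tested genes of stroma and endothelium, 3 were lower and none higher. Pdgfrb, a receptor of mesenchymal cells, measured 45.4, 42.4 and 44.8 CPM in Tet2KO and 32.3, 32.8 and 32.4 CPM in dKO (log2 fold change -0.45, adjusted p = 1.4e-06), and Vcam1, an adhesion molecule also made by macrophages, was lower by -0.48. Emcn, an endothelial glycoprotein, had 10 to 20 counts per library and a log2 fold change of -0.41 that did not pass (adjusted p = 0.313). Adgre1, the macrophage marker F4/80, had 90 to 264 counts and was lower, at 11.6, 11.7 and 14.2 CPM in Tet2KO and 9.57, 8.62 and 9.51 CPM in dKO (log2 fold change -0.44, adjusted p = 0.0045). The part of admixed cells in the results was not tested.

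**Figure D3:**
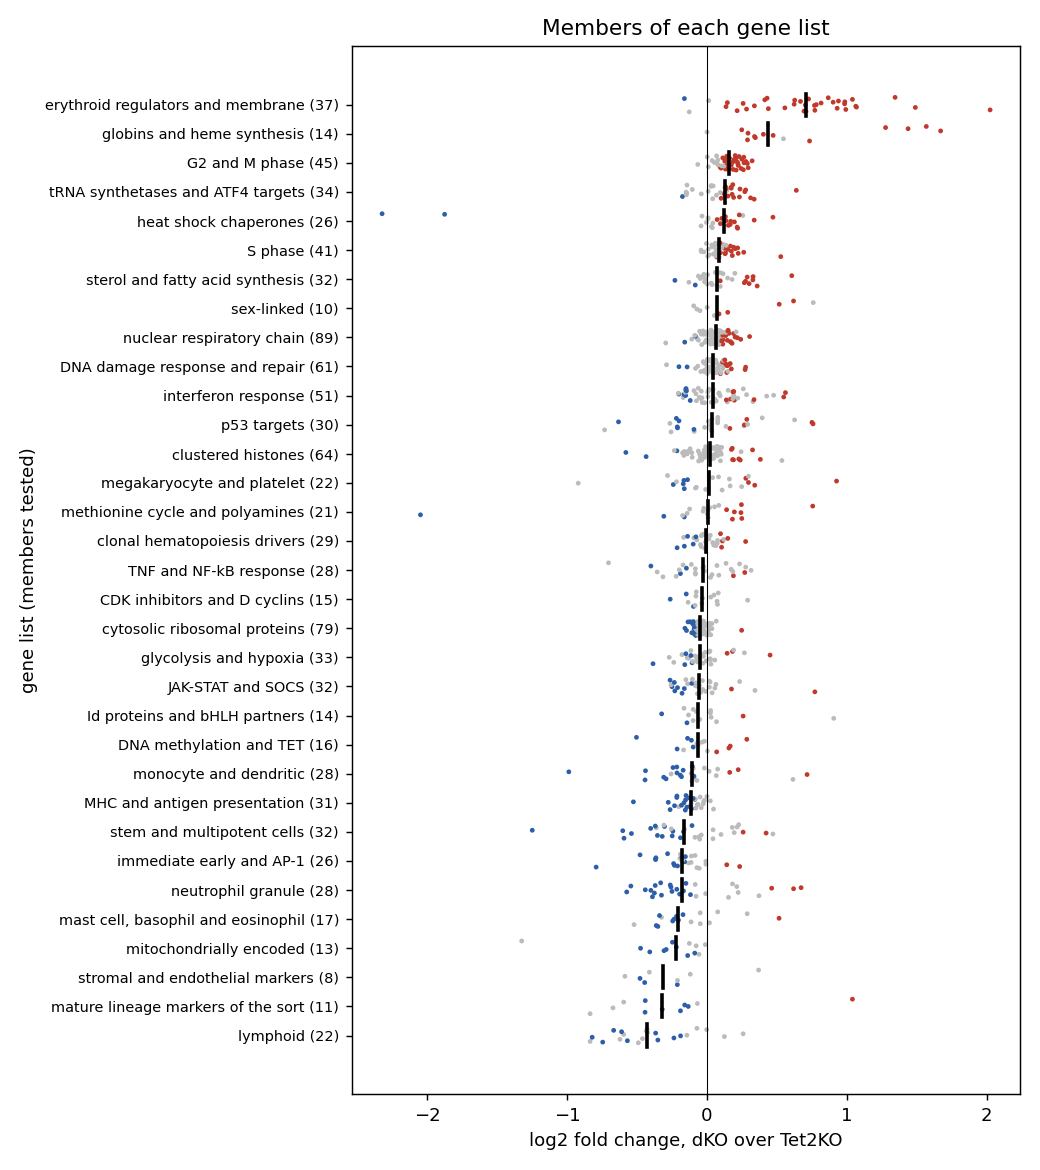
Log2 fold changes of dKO over Tet2KO for the tested members of 33 gene lists, one row per list with its number of tested members, ordered by median; red and blue points were called higher and lower, grey points were not called, and black bars are medians. The erythroid and globin lists stand at the right, with medians of 0.71 and 0.44, and the lymphoid list at the left, with -0.43.

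In the lists of G2 and M phase and of S phase, the genes that passed the test were higher in dKO. The list of CDK inhibitors and D cyclins, given below, had 3 lower and none higher of 15 tested, a share called below the 26.4% over all genes. Of 45 genes of G2 and M phase, 34 were higher and none lower, with a median of 0.16, and of 41 genes of S phase 17 were higher and none lower, with a median of 0.09; without Tet2KO replicate 1, 11 of S phase were called. Plk1, a mitotic kinase, measured 46.9, 45.6 and 44.6 CPM in Tet2KO and 57.4, 54.5 and 59.5 CPM in dKO (log2 fold change 0.32, SE 0.0462, adjusted p = 3.16e-05). Hmmr, a spindle protein, was higher by 0.30, and Ccne1, the cyclin of the start of S phase, by 0.53. Top2a was higher by 0.09 (adjusted p = 0.0136), a call lost without Tet2KO replicate 3 (adjusted p = 0.06401) or dKO replicate 2 (adjusted p = 0.05367). Mki67, the usual marker of cycling cells, measured 1019, 1041 and 1052 CPM against 1049, 1077 and 1069 CPM and did not pass (log2 fold change 0.04, adjusted p = 0.276).

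The medians of the repair and p53 lists lay near 0. Of 61 genes of DNA damage response and repair, 12 were higher and 2 lower, with a median of 0.05. Chek2, a checkpoint kinase, measured 30.7, 31.6 and 30.2 CPM in Tet2KO and 37.4, 36.2 and 38.3 CPM in dKO (log2 fold change 0.28, adjusted p = 0.000211), whereas Xpc, which recognises bulky lesions, was lower by -0.20. Of 30 p53 targets, 5 were higher and 6 lower, or 36.7% called against 26.4% over all genes. Their median was 0.03, with log2 fold changes from -0.73 to 0.76. Pmaip1, which encodes Noxa, a protein that promotes cell death, measured 4.41, 4.65 and 4.58 CPM against 9.06, 7.06 and 7.03 CPM (log2 fold change 0.76, adjusted p = 0.000113). Trp53inp1, a stress protein induced by p53, went the other way, at 25, 27.5 and 24.6 CPM against 15.3, 18.6 and 15.7 CPM (log2 fold change -0.63, adjusted p = 1.2e-05). Members of the list thus differed in direction.

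Of 34 tRNA synthetases and targets of Atf4, 19 were higher and 1 lower, with a median of 0.13. Asns, asparagine synthetase, measured 43.9, 42.0 and 41.2 CPM in Tet2KO and 67.8, 67.3 and 62.7 CPM in dKO (log2 fold change 0.64, SE 0.0544, adjusted p = 4.08e-08). Mthfd2, a mitochondrial folate enzyme, was higher by 0.34 and Eprs, a double tRNA synthetase, by 0.12, while the amino acid carrier Slc38a2 was lower by -0.17. Among 89 nuclear genes of the respiratory chain, 20 were higher (22.5%, against 13.1% over all genes) and 2 lower, with a median of 0.06. The mitochondrially encoded genes went down: 8 of 13 were lower and none higher, with a median of -0.22, and 8 were lower without dKO replicate 2, but 5 without dKO replicate 1 or Tet2KO replicate 3. mt-Co3 measured 1078, 1231 and 990 CPM in Tet2KO and 768, 921 and 684 CPM in dKO (log2 fold change -0.47, adjusted p = 0.00101), yet Gm28437 shares 783 identical bases with it. Summed with that copy, mt-Co3 fell by 0.127 on the log2 scale, from 2677 to 2451 CPM. mt-Co1 was lower by -0.09 (adjusted p = 0.0321), and leaving out any 1 of 5 libraries, all but dKO replicate 2, ended that call.

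Among metabolic genes, 9 of 32 for sterols and fatty acids were higher and 2 lower, and Scd2, a fatty acid desaturase, was lower by -0.23. Without Tet2KO replicate 3, 5 were called higher. Glycolysis genes were higher in 3 and lower in 5 of 33, or 24.2% called against 26.4% over all genes. Pfkm, phosphofructokinase of muscle and red cells, was higher by 0.45 and Ldha, a lactate dehydrogenase, by 0.18, whereas Ndrg1, a gene induced by hypoxia, was lower by -0.39. Odc1, the first enzyme of polyamine synthesis, measured 246, 250 and 243 CPM against 288, 293 and 297 CPM (log2 fold change 0.25, adjusted p = 4.09e-07). Ribosomal protein genes were lower in 17 and higher in 1 of 79, with a median of -0.05 and with 8 lower without Tet2KO replicate 1 and 10 without replicate 3. The share called was 22.8%, against 26.4% over all genes, and the share lower was 21.5%, against 13.4%.

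The chaperones split in a sharp way. Of 26 heat shock genes 15 were higher and 2 lower, with a median of 0.12, and the 2 lower genes were the inducible Hsp70 genes Hspa1a and Hspa1b. Hspa1a, at chr17:34969190-34972156, measured 45.3, 44.3 and 41.9 CPM in Tet2KO and 9.38, 8.86 and 8.03 CPM in dKO (log2 fold change -2.32, SE 0.0638, adjusted p = 3.98e-16). Hspa1b measured 57.8, 57.2 and 55.3 CPM against 14.7, 13.9 and 17.7 CPM (log2 fold change -1.88, adjusted p = 8.46e-14). The pair shares 99.2% of 2201 bases, and its sum went from 100.6 to 24.2 CPM. WT had a sum of 30.09 CPM and Id1KO one of 48.15 CPM, so the Tet2KO libraries were the highest of the 4 groups. The constitutive Hspa8 was higher by 0.22, at 2586, 2589 and 2619 CPM against 3010, 3051 and 2996 CPM (adjusted p = 4.33e-06), the mitochondrial Hspd1 by 0.34 and Hsph1, a partner of Hsp70, by 0.47.

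Immediate early genes were lower in 12 and higher in 2 of 26 tested, with a median of -0.18. Fosb, a subunit of AP-1, measured 201, 199 and 195 CPM in Tet2KO and 117, 104 and 122 CPM in dKO (log2 fold change -0.79, SE 0.0439, adjusted p = 5.84e-11). Fos was lower by -0.23 and Jun by -0.18, and Klf2, a factor of cell quiescence, by -0.48. Myc and Dusp6 were the higher members, by 0.14 and 0.23. Interferon response genes were higher in 8 and lower in 7 of 51 tested, with 5 higher without Tet2KO replicate 1 or dKO replicate 3 and 3 in DESeq2. Oasl1 was higher by 0.56 and Tap1, a peptide carrier, lower by -0.16. Of 28 genes of the TNF and NF-kB response 2 were higher and 3 lower: Tnfaip2 was higher by 0.27 and Nlrp3, the inflammasome sensor, lower by -0.40. Of 32 JAK-STAT genes 2 were higher, among them the kinase Pim1 by 0.18, and 8 were lower. The shares called were 29.4%, 17.9% and 31.2% in the interferon, TNF and JAK-STAT lists, against 26.4% over all genes.

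Of 14 tested Id proteins and proteins that they bind, 1 was higher, Tal1, and 2 were lower, Ets1 and Spi1. The share called was 21.4%, against 26.4% over all genes. Spi1, also called PU.1, a regulator of myeloid fate, measured 115, 113 and 119 CPM in Tet2KO against 110, 99.8 and 104 CPM in dKO (log2 fold change -0.14, adjusted p = 0.00537). Of 16 genes of DNA methylation, 4 were higher and 5 lower; without 1 library it was 1 to 3 higher and 3 to 5 lower. Tet1, the relative of Tet2, measured 39.1, 41.0 and 46.2 CPM in Tet2KO and 29.3, 29.0 and 30.9 CPM in dKO (log2 fold change -0.50, SE 0.0589, adjusted p = 3.05e-06). Dnmt3a, a DNA methyltransferase mutated in clonal hematopoiesis, was lower by -0.21. Of 29 drivers of clonal hematopoiesis 5 were higher and 5 lower, Srsf2, a splicing factor, by 0.15 and Jak2, a kinase, by -0.16; each count lay between 3 and 6 when 1 library was left out. Of 15 CDK inhibitors and D cyclins 3 were lower and none higher, with a median of -0.036. The share called either way was below the 26.4% over all genes, and the share lower was above 13.4%. With so few calls, no shift of this list is read from them.

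Beside the 4 globins and Epb42, the 12 highest log2 fold changes among genes that reached 5 CPM held Xlr3b, a gene of the X chromosome, at 2.45, 2.38 and 2.37 CPM in Tet2KO and 8.30, 6.76 and 8.27 CPM in dKO (log2 fold change 1.69, adjusted p = 6.07e-08). Summed with its copy Xlr3a it went from 3.329 to 11.15 CPM. Eps8l1, related to an actin regulator, rose from 1.84, 1.85 and 1.99 CPM to 5.64, 5.45 and 5.55 CPM (log2 fold change 1.55, adjusted p = 8.18e-08). Pkhd1l1, Tmem56, Rnf17 and Mboat2 were higher by 1.27, 1.13, 1.21 and 1.12. Rnu3a has 2 overlapping identifiers, of which 1 was higher by 1.27, and their sum went from 111 to 127.3 CPM, a log2 ratio of 0.198, so that single call is uncertain.

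The 12 lowest, which also held Hspa1a, Hspa1b, Ahcy, Mgl2 and Dntt, included Lrmda, a gene linked to melanocyte differentiation, at 5.82, 6.67 and 4.09 CPM in Tet2KO and 1.08, 1.02 and 1.06 CPM in dKO (log2 fold change -2.38, SE 0.202, adjusted p = 4e-08). Rin2, a regulator of Rab5 traffic, measured 6.13, 6.37 and 6.52 CPM against 2.73, 2.33 and 2.60 CPM (log2 fold change -1.31, adjusted p = 3.96e-07). Rin2 lies at chr2:145675215-145887616, on the chromosome of Id1. Ncam1, a neural and lymphoid adhesion molecule, was lower by -0.99, and Psma8, Maml2, Arhgef28 and Entpd1 by -1.20, -0.85, -0.84 and -0.82. Each of these passed the test with no overlap between the groups.

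Ahcy, at chr2:155059310-155074497, needs its copies to be read with it. Ahcy, which hydrolyses S-adenosylhomocysteine, measured 283, 270 and 274 CPM in Tet2KO and 69.5, 63.1 and 67.6 CPM in dKO (log2 fold change -2.05, adjusted p = 7.92e-17). Gm4737, a gene model at chr16:46152985-46155077 that shares 99.7% of 2083 bases with Ahcy, measured 4.47, 5.42 and 6.25 CPM against 234, 224 and 225 CPM (log2 fold change 5.39, adjusted p = 2.66e-23). It was chosen for naming after its values were seen. The sum of Ahcy, Gm4737 and Gm7292 went from 281.6 to 323.2 CPM, a log2 ratio of 0.199. In WT the sum was 322.7 CPM and in Id1KO 324.3 CPM. Ahcy and Gm4737 thus moved in opposite directions by more than the sum, whose Tet2KO libraries lay below all others without overlap, and the level of Ahcy alone is uncertain.

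**Figure D4:**
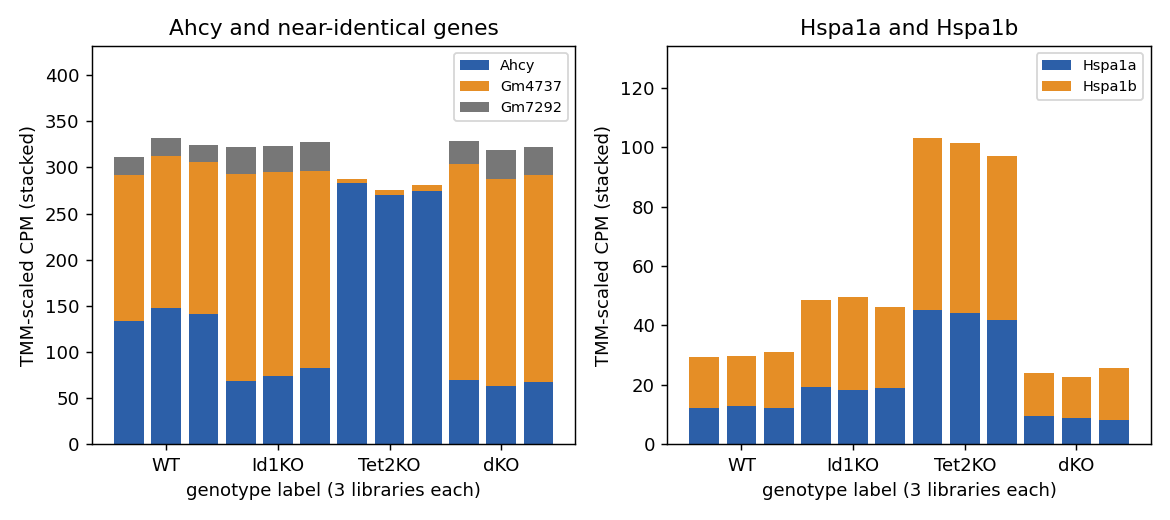
Stacked TMM-scaled CPM of Ahcy with the near-identical genes Gm4737 and Gm7292 (left) and of Hspa1a with Hspa1b (right), 1 bar per library and 3 per genotype label. The Ahcy group totals 275.7 to 288.1 CPM in Tet2KO and 311.6 to 332.1 CPM in the 9 other libraries, while its parts differ more, and the Hsp70 pair is highest in the 3 Tet2KO libraries, with a mean sum of 100.6 CPM.

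The genes near Id1 on chromosome 2 were read by their distance from it. Within 1 Mb of Id1, 50% of 28 tested genes were called, between 1 and 2.5 Mb 41.9% of 31, and beyond 50 Mb 26.8% of 508, the last close to the 26.4% over all genes. Called genes within 1 Mb were 6 higher and 8 lower. Of these, 5 were also called in Id1KO against WT, all 5 with the same sign. In Id1KO against WT 21.4% were called within 1 Mb and 9.68% between 1 and 2.5 Mb, against 15.0% over all genes. Between 2.5 and 5 Mb the shares were 28.8% of 59 here and 20.3% in Id1KO against WT. Between 5 and 10 Mb they were 33.3% of 42 and 35.7%, with 10 genes called in both, 9 with the same sign. From 10 to 20 Mb they were 23.7% and 21.6%, and from 20 to 50 Mb 25.4% and 13.7%. The difference in shares was not tested in either comparison. Xist, the RNA of the silenced X chromosome, and Y genes show the sex of the cells. Xist measured 10.6, 9.89 and 11.96 CPM in Tet2KO, 17.0, 16.3 and 16.8 CPM in dKO and 262 CPM on average in WT, and Eif2s3y, on the Y chromosome, 40.1, 46.7 and 42.4 CPM in Tet2KO and 61.7, 63.2 and 60.1 CPM in dKO. Both were higher in dKO, by 0.62 and 0.52, while the Y genes Uty, Ddx3y and Kdm5d had log2 fold changes of 0.00, -0.09 and -0.07. For Xist, the log2 fold change of dKO over Tet2KO minus that of Id1KO over WT was 2.63 (edgeR's interaction test, adjusted p = 9.25e-14). Xist thus also differed between Id1KO and WT. The part of donor sex in the results, among them the comparison with Id1KO against WT, was not tested.

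The same label of Id1 loss was then read in cells with Tet2. In Id1KO against WT, 2156 genes (15.0%) were called. Genes called in both comparisons numbered 931, which is 24.5% of the calls in dKO against Tet2KO and 43.2% of those in Id1KO against WT, and 760 of them had the same sign. The difference between the 2 fold changes passed the test of the interaction for 2078 genes (14.5%). Of the 3793 genes called in dKO against Tet2KO, 1443 (38%) also differed between backgrounds.

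The erythroid difference was seen on the Tet2KO background. In Id1KO against WT, 5 of the 37 erythroid genes were higher and 1 lower, with a median of 0.04, and in the test of the interaction 28 were higher and none lower. Klf1 had a log2 fold change of 0.02 in Id1KO against WT and a difference of 0.70 (adjusted p = 3.4e-08). Rhag had 0.07 and a difference of 1.0 (adjusted p = 4e-08). Hspa1a was higher in Id1KO than WT by 0.60 and lower in dKO than Tet2KO, and its difference was -2.92 (adjusted p = 8.2e-15). Other genes had similar values in both: Lrmda was lower by -2.59 in Id1KO against WT and by -2.38 here, with a difference of 0.21 (adjusted p = 0.71), Rin2 by -1.77 and -1.31, Dntt by -0.66 and -0.82, Fosb by -0.72 and -0.79, and Cd34 by -0.28 and -0.32. For these 5 genes the interaction did not pass the threshold, which does not show that the effects are equal. Immediate early genes were lower in 12 of 26 in each comparison. G2 and M phase genes were higher in 21 of 45 in Id1KO against WT, with a median of 0.10, beside 34 and 0.16 here.

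**Figure D5:**
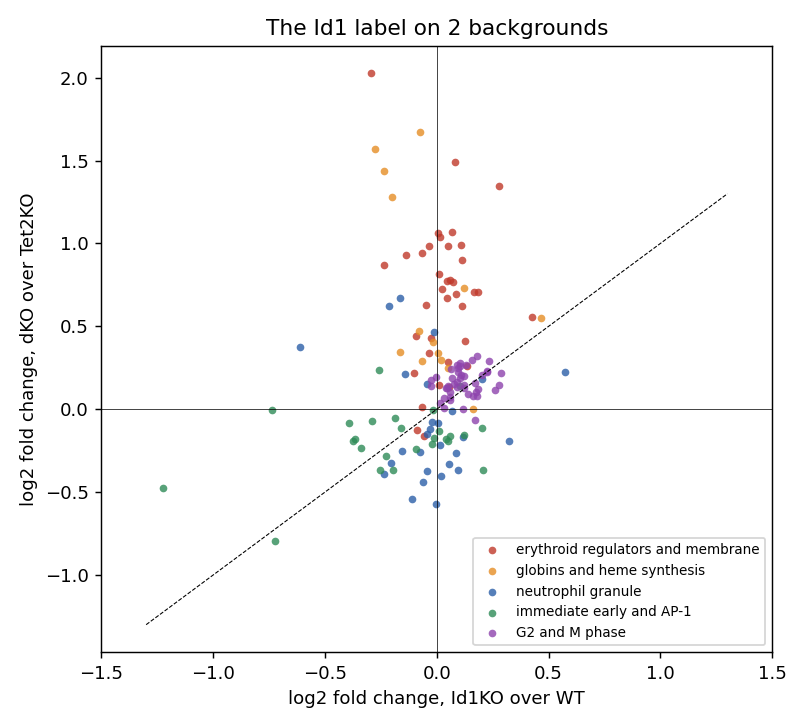
Log2 fold change of dKO over Tet2KO (vertical) against that of Id1KO over WT (horizontal) for tested members of 5 gene lists, with a dashed line of equal change. Above the line lie 35 of the 37 erythroid genes and 13 of the 14 globin and heme genes, with Icam4, Nfe2 and Slc25a37 below it, and horizontal values of both lists run from -0.29 to 0.47, while Fosb lies near it at -0.72 and -0.79.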

How the data were processed

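The labels' protocols name stranded total RNA libraries with ribosomal RNA removed, from donor Lin- ckit+ marrow cells. For the 12 libraries the authors deposited estimated counts of 55450 genes, and the submitters' processing notes name STAR, RSEM and mm10; versions and the strand setting are not given in the sources used here. About 5% of genes in each library were not whole numbers, and no column was left without a sample. All 55450 identifiers matched GENCODE M21 (GRCm38), which gave symbols and positions, 1-based. RefSeq promoters of GRCm38.p6 covered 9878 of the 14346 genes tested by symbol.

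Counts were rounded, filtered with filterByExpr (minimum count 10), scaled by TMM and fitted with edgeR's quasi-likelihood test on all 12 libraries, 1 mean per genotype, with two-sided F-tests and Benjamini-Hochberg adjustment over 14346 genes at 0.05. The interaction tested whether the 2 Id1 contrasts differ. Near copies were sought with blast at 95% identity over 100 bases. All 6 pairs of libraries within dKO and Tet2KO differed by more than sampling noise and were kept apart. Same-numbered libraries had deviation correlations of -0.013, 0.113 and 0.016 and were not treated as pairs. The steps were tested on simulated data. Some genes, such as Tal1 and Kit, stand in more than 1 list, and some list members are counted but not reported by name here. The members and the 33 gene lists were chosen with earlier results of these data known. Named genes were Tet2 and Id1; the 12 highest and 12 lowest called genes, gene models left out, whose groups do not overlap and whose mean reaches 5 CPM in dKO or Tet2KO; in each list 2 called genes per direction of at least 5 CPM and the 2 most abundant; and the 5 most positive and negative interactions. This rule gave 180 genes, of which those illustrating each list are printed. Alternatives were other scalings, DESeq2, other filters, the 6 libraries alone, a replicate block, a threshold of 0.01, glmTreat at 1.2-fold and leaving out each library. edgeR 4.0.16 and DESeq2 1.42.0 ran in R 4.3.3, beside blast 2.17.0, Python 3.11.15 and matplotlib 3.10.9.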

Additional observations from a re-analysis of the deposited data

Results flagged for a closer look

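The fold change for the Id1 label differed between the Tet2KO and the Tet2-carrying background by edgeR's interaction test, with adjustment over all genes, for 2078 genes (14.5%). Of the 107 genes whose fold changes were followed across the alternatives, 75 were among them. The value given is the log2 fold change of dKO over Tet2KO minus that of Id1KO over WT. Among red cell genes it was Hbb-bs 1.75, Hbb-bt 1.85, Hba-a1 1.48, Hba-a2 1.68, Cpox 0.61, Fech 0.36, Epb42 1.41, Rhag 1, Ank1 1.01, Car1 0.54, Car2 0.72, Epor 0.73, Gata1 0.62, Klf1 0.7 and Gfi1b 0.7. Among cell division and metabolism genes it was Ccne1 0.37, Asns 0.41, Mthfd2 0.28, Eprs 0.16, Slc38a2 -0.24, Pfkm 0.49, Ldha 0.11, Ndrg1 -0.21, Odc1 0.2 and mt-Co1 -0.19. Among chaperones it was Hspa1a -2.92, Hspa1b -2.61 and Hspd1 0.31. Among Ahcy and its copy it was Ahcy -1.14 and Gm4737 4.96. Among myeloid and mast cell genes it was Mpo -0.16, Fcnb -0.57, Itgam -0.38, Zbtb46 0.56, Ccr2 0.19, F13a1 0.33, Ly6c2 -0.17, Mgl2 -0.67, Cpa3 -0.43, Fcer1a -0.45, Prg2 -0.66 and Pf4 -0.52. Among lymphoid, antigen presentation and stem cell genes it was H2-Ob -0.49, Cd79b -0.34, Nkg7 -0.27, Rbpms -0.72, Hlf -0.47 and Mllt3 0.44. Among signalling and stress genes it was Klf2 0.75, Jun 0.19, Dusp6 0.49, Pmaip1 0.97, Trp53inp1 -0.75, Oasl1 0.85, Tnfaip2 0.29, Nlrp3 0.54 and Pim1 -0.44. Among DNA methylation and splicing genes it was Tet1 -0.3, Dnmt3a -0.16 and Srsf2 0.18. Among genes of other kinds it was Id1 -1.4, Xlr3b 1.84, Eps8l1 -0.97, Rnu3a 1.76, Pkhd1l1 1.2, Rnf17 1.22, Tmem56 0.93, Mboat2 1.04, Psma8 -0.93, Ncam1 -0.64, Maml2 -0.69, Entpd1 -0.87, Xist 2.63, Vcam1 -0.44 and Pdgfrb -0.65. Groups of 3 libraries are too small for a check of single outlying samples.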

How the results depend on the processing

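The counts for dKO against Tet2KO were within 1.5 times of 1876 higher and 1917 lower genes under other scalings, other filters, DESeq2 (1347 and 1398) and the 6 libraries alone. A threshold of 0.01 gave 1123 higher and 1162 lower, 972 for the difference between backgrounds and 1085 for Id1KO against WT. With glmTreat at 1.2-fold these were 200, 134, 237 and 140. DESeq2 called 1350 genes for the difference and 1418 for Id1KO against WT. Fewer genes pass these rules by construction, except for DESeq2, where the cause was not tested.

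Leaving out 1 library of the groups compared gave 1435 to 1631 higher, 1516 to 1726 lower, 1579 to 2161 for the difference and 1512 to 1787 for Id1KO against WT. Leaving out 1 library of the 2 other groups, which share the estimate of the spread, gave 1758 to 1882 higher, 1857 to 1965 lower and 1996 to 2386 for Id1KO against WT. The samples share only a number. A fit with that number as a replicate block called 1771 higher and 1821 lower and, of the named genes, lost the call of mt-Co1 (adjusted p = 0.0513). Id1, which did not pass in dKO against Tet2KO, changed sign to -0.02 without Tet2KO replicate 2 or 3 or dKO replicate 1, to -0.04 without dKO replicate 3, and ranged up to 0.13 without dKO replicate 2.

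Of the named genes, 46 lost the call with glmTreat and 2 at a threshold of 0.01, with no change of direction in either. The 3 other scalings and no filter on low counts left all 107 on the same side. The count of clustered histones called higher was 8 of 64 (12.5%, against 13.1% over all genes), and 18 without dKO replicate 2. Low counts limit Alas2, Id1 and many lymphoid genes.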
